A study of Mus musculus with 4 samples.

Results

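The keratin-associated protein genes (Krtap) are the 54 rows, of 17721 genes in the deposited table, whose symbol begins with Krtap and a number. The number before the hyphen names the subfamily, and 26 subfamily numbers were present. Subfamilies 6, 7, 8, 16, 19, 20, 21 and 22 form the high glycine-tyrosine class, with 16 genes, and the 38 genes of every other number form the high or ultrahigh sulfur class, called sulfur-rich here. RNA was measured by sequencing in back skin of LDB2-/- mice and of wild type (WT) mice, with 2 libraries of each genotype. All 4 libraries came from C57BL/6 animals at postnatal day 63, and the skins were incubated with the protease dispase, which frees the epidermis from the dermis below it. Ldb2 encodes a LIM domain binding protein, an adaptor for transcription factor complexes. The labels do not say how the LDB2-/- allele was made, or whether the 2 libraries of a genotype came from separate animals, so p-values measure only the spread between these libraries, which may be technical.

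Keratin-associated proteins are small structural proteins of the hair shaft. They fill the matrix between the keratin filaments and join them, largely through disulfide bonds between cysteines. High glycine-tyrosine proteins are short and are rich in those residues, while high and ultrahigh sulfur proteins carry many cysteines. The genes lie in clusters and are switched on during the growth phase of the hair cycle, as cells of the follicle matrix differentiate into cortex and cuticle. In human hair, subfamilies 1, 2, 3, 4 and 9 are known mainly from the cortex, the bulk of the shaft, and subfamilies 5, 10, 12 and 17 from the cuticle, its outer sheath of flat cells.

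The class names were checked against coding sequences, which were found for all 54 genes in the GENCODE M21 transcripts (GRCm38), each on 1 exon. The starts of 3 high glycine-tyrosine genes show the composition that names the class. Each line gives the first 120 bases of the coding sequence, 5′ to 3′, with glycine and tyrosine codons in capitals.
Krtap8-1, chr16:89487788-89487907, minus strand: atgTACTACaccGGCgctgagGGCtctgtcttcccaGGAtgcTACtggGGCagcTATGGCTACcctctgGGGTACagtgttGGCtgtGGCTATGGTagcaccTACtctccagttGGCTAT
Krtap6-5, chr16:89047724-89047843, minus strand: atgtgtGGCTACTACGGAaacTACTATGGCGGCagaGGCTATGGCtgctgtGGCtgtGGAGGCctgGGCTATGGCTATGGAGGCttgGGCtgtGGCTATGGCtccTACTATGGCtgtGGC
Krtap16-3, chr16:88962704-88962823, minus strand: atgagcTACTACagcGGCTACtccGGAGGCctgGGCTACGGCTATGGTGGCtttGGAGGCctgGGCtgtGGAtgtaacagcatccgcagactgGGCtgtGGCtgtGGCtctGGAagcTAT

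Of the first 40 codons, 19 code for glycine or tyrosine in Krtap8-1, 28 in Krtap6-5 and 21 in Krtap16-3. The next 4 starts show 2 cysteine-rich genes, the sulfur-rich gene with the lowest cysteine share, and Krtap16-1. Here the capitals mark cysteine codons.
Krtap4-7, chr11:99643916-99644035, minus strand: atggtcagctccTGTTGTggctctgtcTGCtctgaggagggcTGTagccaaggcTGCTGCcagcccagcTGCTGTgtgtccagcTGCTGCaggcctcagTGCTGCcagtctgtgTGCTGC
Krtap17-1, chr11:99993820-99993939, minus strand: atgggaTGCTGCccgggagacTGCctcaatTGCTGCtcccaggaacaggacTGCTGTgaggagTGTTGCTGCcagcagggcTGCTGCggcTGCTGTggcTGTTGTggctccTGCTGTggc
Krtap15, chr16:88829047-88829166, plus strand: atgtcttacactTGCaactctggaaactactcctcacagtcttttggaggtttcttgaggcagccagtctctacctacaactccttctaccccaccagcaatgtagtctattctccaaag
Krtap16-1, chr11:99986457-99986576, minus strand: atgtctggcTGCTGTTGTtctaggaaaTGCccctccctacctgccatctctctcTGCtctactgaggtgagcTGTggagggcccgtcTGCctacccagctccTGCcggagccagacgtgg

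Cysteine takes 14 of the first 40 codons in Krtap4-7, 18 in Krtap17-1, 1 in Krtap15 and 8 in Krtap16-1. Over whole coding sequences, glycine and tyrosine codons made up 3.78 to 69.2% of the high glycine-tyrosine genes (median 62.8%) and 0.922 to 42.0% of the sulfur-rich genes (median 6.54%). Cysteine codons made up 0 to 20.1% of the high glycine-tyrosine genes (median 8.09%) and 4.0 to 42.8% of the sulfur-rich genes (median 30.4%). The low end for glycine and tyrosine is Krtap16-1, whose sequence goes against its class. It has 502 codons, of which 20.1% are cysteine and 3.78% glycine or tyrosine, and it lies on chromosome 11 among the sulfur-rich genes. Krtap16-3, the other gene of that number, has 86 codons, 8.14% cysteine and 59.3% glycine or tyrosine, and lies on chromosome 16. RefSeq lists the symbol Krtap16-1 also as an older symbol of Krtap19-2. Krtap16-1 was kept in the class that its number gives, and class values without it are given where they differ.

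The sulfur-rich name also held unevenly. The 8 sulfur-rich genes on chromosome 16 (Krtap11-1, Krtap13, Krtap13-1, Krtap14, Krtap15, Krtap24-1, Krtap26-1 and Krtap27-1) had 4.0 to 12.7% cysteine codons. The 8 Krtap4 genes had 31.7 to 38.9% and the 5 Krtap5 genes 34.6 to 41.5%. Krtap28-13, on chromosome 1, was rich in both, with 42.8% cysteine and 42.0% glycine or tyrosine codons. By codons alone, with glycine plus tyrosine set against cysteine, 9 genes would change class, 8 of them sulfur-rich by number.

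**Figure D1:**
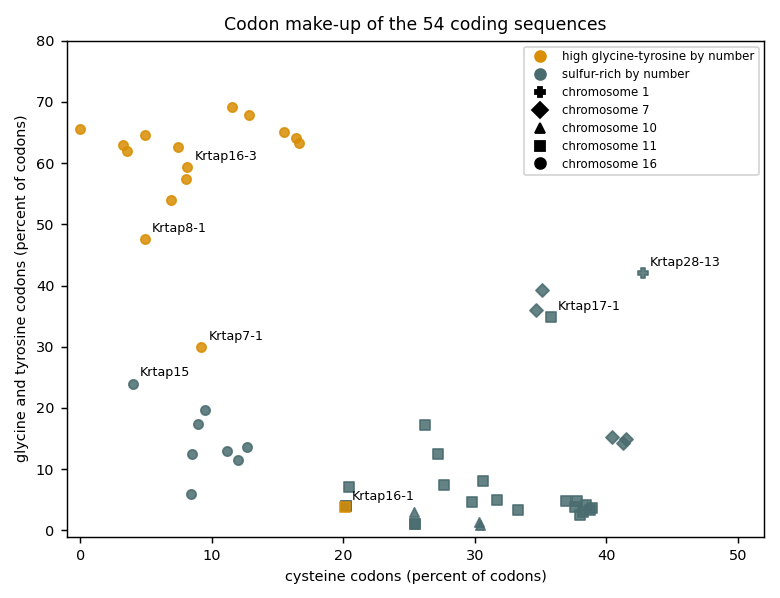
Share of cysteine codons (x axis, percent) against share of glycine and tyrosine codons (y axis, percent) in the coding sequence of each of the 54 Krtap genes, with colour for the class given by the subfamily number and marker shape for the chromosome. Krtap16-1 lies apart from its class at 20.1% cysteine and 3.78% glycine or tyrosine, and the sulfur-rich genes of chromosome 16 lie at 4.0 to 12.7% cysteine.

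The total count was 54095522 and 68436842 in the LDB2-/- libraries and 67307536 and 57517162 in the WT libraries. Ldb2 itself had 0 and 0 counts in LDB2-/- and 0 and 8 in WT, so it could not check the labels. Summed over markers and given as CPM (counts per 1000000 of the scaled library), interfollicular epidermis was at 12578 and 12459 in LDB2-/- against 42104 and 36573 in WT, with 5 of 5 markers lower. Melanocyte markers were at 1047 and 1196 CPM in LDB2-/- against 24.9 and 42.9 in WT, with 3 of 3 higher. Dermal fibroblast markers were at 151 and 191 CPM in LDB2-/- against 60.5 and 35 in WT, with 3 of 5 tested and all 3 higher. Of those not tested, Pdgfra was at 1.85 and 0.807 CPM in LDB2-/- against 1.91 and 0.959 CPM in WT. Lum was at 1.89 and 1.03 CPM in LDB2-/- against 1.12 and 0.449 CPM in WT. Endothelial markers were at 9.75 and 15.1 CPM in LDB2-/- against 1.31 and 3.06 in WT, with 1 of 3 tested and higher, and Kdr was at 0 in both LDB2-/- libraries. Skeletal muscle markers were at 31.2 and 24.9 CPM in LDB2-/- against 0.782 and 0.402 in WT, with 2 of 3 tested and both higher, and Myh4 was at 0 in WT library 2. T and Langerhans cell markers were at 31.4 and 34.6 CPM in LDB2-/- against 83.8 and 88.6 in WT, with 2 of 2 lower, and proliferation markers at 339 and 328 against 258 and 285, with 1 of 3 higher. The part of these differences in the Krtap results was not tested. In bulk tissue, more cells of a type and more RNA per cell cannot be told apart.

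Krtap RNA was a measurable share of all RNA in LDB2-/- skin and close to nothing in WT skin. The 54 genes together had 685967 and 911986 counts in LDB2-/-, or 1.27% and 1.33% of the library, against 3083 and 12506 in WT, or 0.00458% and 0.0217%. As scaled levels they summed to 14574 ± 1067 CPM in LDB2-/- and 117.5 ± 107.4 CPM in WT (SD, n = 2 each). Differences between genotypes were tested on counts with the quasi-likelihood test of edgeR, at an adjusted p under 0.05. The test took in the 12400 genes that reached an FPKM of 1 in 2 or more libraries, where FPKM stands for fragments per kilobase per 1000000 fragments. Of the 54 genes, 48 were tested, and 48 of these 48 were higher in LDB2-/- and 0 lower, beside 28.4% of all genes tested that were higher, 28.8% that were lower and 57.2% that went either way. Of the 48, 23 reached an FPKM of 1 in no WT library. They passed the filter only through the LDB2-/- libraries and could hardly have gone another way, and 21 of those were sulfur-rich. Genes that reached it in only 1 WT library also needed an LDB2-/- library to pass. Krtap15, at 0.350 and 26.3 FPKM in WT, and Krtap19-3, at 0 and 2.99 FPKM in WT, are examples. With no filter, 50 of 54 genes were higher and 0 lower, beside 19.7% of 17721 genes higher. Both LDB2-/- libraries lay above both WT libraries for 53 of 54 genes, all but Krtap13, beside 35.3% of all genes in the table. Levels in LDB2-/- spanned a wide range within the family, from a mean of 3990 FPKM for Krtap8-1 to 0.0162 FPKM for Krtap13.

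**Figure D2:**
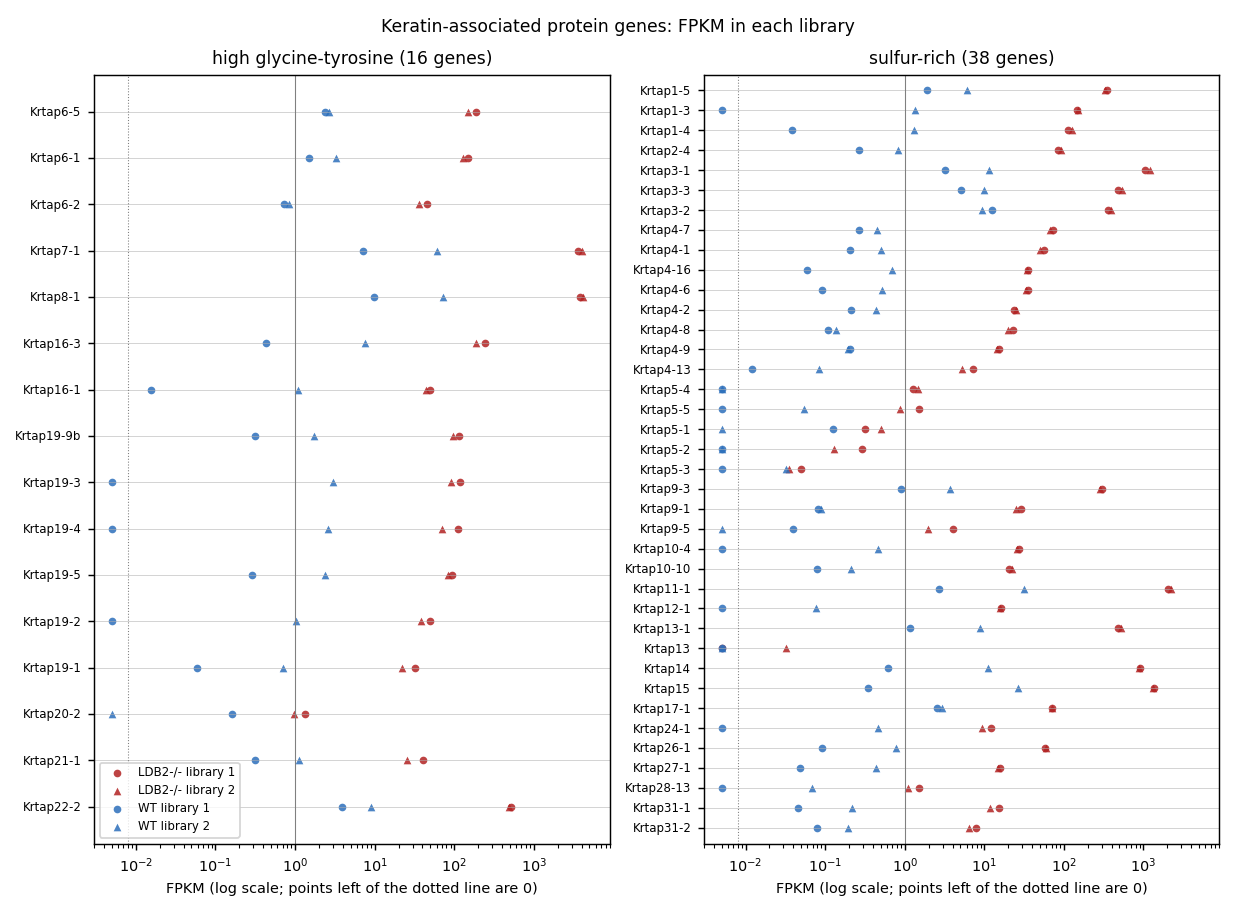
FPKM of each Krtap gene in every library (log axis), ordered by class and subfamily, with red points for LDB2-/- and blue points for WT libraries, values of 0 left of the dotted line, and a vertical line at an FPKM of 1. Krtap8-1, Krtap7-1 and Krtap11-1 have the highest LDB2-/- means, at 3990, 3807 and 2126 FPKM, and the Krtap5 genes lie near the bottom.

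Among the high glycine-tyrosine genes, Krtap8-1 and Krtap7-1, the single members of their subfamilies, led by a wide margin. Krtap8-1 (gene ID 16703, chr16:89487374-89487952) had 121115 and 168412 counts in LDB2-/- and 392 and 2423 in WT. Per length that was 3809 and 4171 FPKM in LDB2-/-, against 9.90 and 71.7 FPKM in WT. Both LDB2-/- values lay far above the higher WT value, while the WT libraries themselves lay far apart. The log2 fold change of Krtap8-1 was 6.95 (SE 1.02, edgeR adjusted p = 0.00267). Krtap7-1 (gene ID 71363, chr16:89507703-89508323) had 123885 and 172394 counts in LDB2-/- and 303 and 2201 in WT, or 3632 and 3981 FPKM in LDB2-/- against 7.13 and 60.7 FPKM in WT. It rose by 7.14 on the log2 scale (SE 1.10, edgeR adjusted p = 0.00316), the largest fold change of its class. Its coding sequence is the least typical on chromosome 16 for this class, with 29.9% glycine or tyrosine codons.

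The other high glycine-tyrosine subfamilies had lower FPKM levels. Krtap22-2 (chr16:89010380-89010759) had 524 and 484 FPKM in LDB2-/- against 3.85 and 8.91 FPKM in WT, from 10928 and 12826 counts against 101 and 198, and rose by 6.63 on the log2 scale (SE 0.41, edgeR adjusted p = 0.000192). Subfamily 6 encodes the best known glycine- and tyrosine-rich hair proteins. It summed to 13127 and 13589 counts in LDB2-/- and to 201 and 249 in WT. As scaled levels that was 264 and 228 CPM in LDB2-/- against 2.71 and 3.85 CPM in WT. Krtap6-5 had 190 and 148 FPKM in LDB2-/- against 2.42 and 2.67 FPKM in WT, a log2 fold change of 6.36 (SE 0.17, edgeR adjusted p = 6.5e-05). Krtap6-1 had 147 and 128 FPKM in LDB2-/- against 1.49 and 3.25 FPKM in WT, and rose by 6.19 (SE 0.37). Krtap6-2 had 45.0 and 35.9 FPKM in LDB2-/- against 0.723 and 0.852 FPKM in WT, and passed the filter only through LDB2-/-. It rose by 5.98 (SE 0.22), among the smallest rises of the class.

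Krtap16-3 was uneven in WT, with 242 and 186 FPKM in LDB2-/- against 0.435 and 7.60 FPKM in WT, and its log2 fold change was 6.08 (SE 1.09, edgeR adjusted p = 0.00547). Krtap16-1, the gene whose sequence goes against its class, had 49.4 and 44.7 FPKM in LDB2-/- and 0.0153 and 1.09 FPKM in WT, from 5135 and 5891 counts against 2 and 121 (log2 fold change 6.77, SE 1.14, edgeR adjusted p = 0.0044). Subfamily 16 as a whole had 12703 and 13274 counts in LDB2-/- and 19 and 374 in WT. The 6 Krtap19 genes had 13174 and 13114 counts in LDB2-/- and 22 and 310 in WT. All 6 were higher, with log2 fold changes of 6.40 to 7.02, and 3 of them, Krtap19-2, Krtap19-3 and Krtap19-4, had 0 counts in WT library 1. Krtap19-1 passed the filter only through LDB2-/-. Krtap19-9b was the highest of the 6 in fold change, with 114 and 95.3 FPKM in LDB2-/- against 0.317 and 1.72 FPKM in WT (SE 0.63, edgeR adjusted p = 0.000531). Krtap21-1 had 41.0 and 25.6 FPKM in LDB2-/- against 0.313 and 1.14 FPKM in WT, from 1687 and 1338 counts against 17 and 50. Its log2 fold change of 5.83 (SE 0.58) was the smallest among the tested genes of the class. Krtap20-2 did not reach the filter, with 40 and 37 counts in LDB2-/- and 6 and 0 in WT, and the fit with no filter gave 4.02 with an edgeR adjusted p of 0.0889.

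The sulfur-rich genes of chromosome 11 hold the subfamilies known from the human hair cortex. The 3 Krtap3 genes were the most abundant of these, with 74719 and 106586 counts in LDB2-/- and 1265 and 1379 in WT. Krtap3-1 (chr11:99566027-99566630) had 1051 and 1225 FPKM in LDB2-/- against 3.19 and 11.3 FPKM in WT, a log2 fold change of 7.63 (SE 0.68, edgeR adjusted p = 0.000525). Krtap3-3 had 485 and 532 FPKM in LDB2-/- against 5.17 and 9.79 FPKM in WT and rose by 6.41 (SE 0.35). Krtap3-2 had 360 and 387 FPKM in LDB2-/- against 12.4 and 9.30 FPKM in WT. It was one of the few genes with the higher level in WT library 1, and it rose by 5.42 (SE 0.21), one of the smallest rises of its class.

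The 3 Krtap1 genes had 34494 and 43707 counts in LDB2-/- and 139 and 529 in WT, with log2 fold changes of 6.75 to 8.15. Krtap2-4 had 3799 and 5400 counts in LDB2-/- and 16 and 40 in WT, and rose by 7.67 (SE 0.44). The 8 Krtap4 genes had 13932 and 16464 counts in LDB2-/- and 78 and 171 in WT. All 8 were higher by 6.49 to 7.90 on the log2 scale, and all 8 passed the filter only through LDB2-/-. The 3 Krtap9 genes had 13772 and 16264 counts in LDB2-/- and 54 and 168 in WT. Among them, Krtap9-1 had 985 and 1055 counts in LDB2-/- and 4 and 4 in WT. Its log2 fold change of 8.30 (SE 0.31, edgeR adjusted p = 7.7e-05) was among the largest of the class, but it rests on very low WT counts. The 2 Krtap31 genes had 1214 and 1222 counts in LDB2-/- and 9 and 24 in WT. Krtap2-4, Krtap9-1, Krtap9-5 and both Krtap31 genes also passed the filter only through LDB2-/-.

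Krtap17-1 (chr11:99993232-99993994), known from the human hair cuticle, rose the least of all tested members. It had 3010 and 3828 counts in LDB2-/- and 135 and 133 in WT, or 71.8 and 71.9 FPKM in LDB2-/- against 2.57 and 2.98 FPKM in WT. Both genotypes were tight, and the log2 fold change was 5.01 (SE 0.16, edgeR adjusted p = 6.9e-05). Genes of subfamilies 10 and 12, also known from the human cuticle, had higher fold changes. The 2 Krtap10 genes, on chromosome 10, had 2817 and 3649 counts in LDB2-/- and 7 and 42 in WT, with log2 fold changes of 7.20 and 7.48. Krtap12-1, on the same chromosome, had 601 and 746 counts in LDB2-/- and 0 and 4 in WT. Its log2 fold change of 8.63 (SE 0.66, edgeR adjusted p = 0.000327) rests on very low WT counts. All 3 genes of chromosome 10 passed the filter only through LDB2-/-.

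The sulfur-rich genes of chromosome 16, those low in cysteine, held 4 of the 6 genes of their class with the highest mean FPKM, and the other 2 were Krtap3-1 and Krtap3-3. Krtap11-1 (chr16:89570176-89571183) had 112040 and 156666 counts in LDB2-/- and 186 and 1860 in WT. That was 2024 and 2229 FPKM in LDB2-/- against 2.69 and 31.6 FPKM in WT, a log2 fold change of 7.29 (SE 1.24, edgeR adjusted p = 0.00447). Krtap15 (chr16:88829009-88829844) was uneven in WT, with 61966 and 75853 counts in LDB2-/- and 20 and 1285 in WT. Per length it had 1350 and 1301 FPKM in LDB2-/- against 0.350 and 26.3 FPKM in WT. Its log2 fold change was 6.97 with an SE of 1.77, the largest SE of the 48 tested members, and its edgeR adjusted p of 0.0184 was also the highest. Krtap14 (chr16:88825291-88826145), a neighbour of Krtap15, had 42242 and 53002 counts in LDB2-/- and 37 and 564 in WT, or 900 and 889 FPKM in LDB2-/- against 0.616 and 11.3 FPKM in WT. It rose by 7.57 (SE 1.33, edgeR adjusted p = 0.00508). Krtap13-1 had 479 and 528 FPKM in LDB2-/- against 1.17 and 8.84 FPKM in WT, from 19750 and 27618 counts against 61 and 387, and rose by 6.99 (SE 0.95).

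The lower genes of that block moved alike. Krtap26-1 had 3093 and 4053 counts in LDB2-/- and 6 and 44 in WT, Krtap24-1 had 1035 and 1021 against 0 and 43, and Krtap27-1 had 529 and 625 against 2 and 16. All 3 were higher, by 7.46, 5.88 and 6.30 on the log2 scale, and all 3 passed the filter only through LDB2-/-. Krtap13, spelled without a hyphen, had 0 and 3 counts in LDB2-/- and 0 and 0 in WT. It lies at the floor of 3 counts in both genotypes, so no fold change is given.

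Low levels were also found for the 5 Krtap5 genes of chromosome 7 and for Krtap28-13 of chromosome 1. Subfamily 5 encodes ultrahigh sulfur proteins, known in human hair from the cuticle, and it summed to 212 and 218 counts in LDB2-/- and 7 and 8 in WT. Krtap5-4 alone of the 5 was tested, with 71 and 104 counts in LDB2-/- and 0 and 0 in WT. Against a floor of 3 counts over the WT group its log2 fold change was at least 6.21. Krtap5-2 had 24 and 14 counts in LDB2-/- and 0 and 0 in WT, a log2 fold change of at least 4.01 against the same floor, which covers counting error only. Krtap5-5 had 99 and 71 counts in LDB2-/- and 0 and 4 in WT, and with no filter its log2 fold change was 5.63 (edgeR adjusted p = 0.0187). Krtap5-1 had 13 and 25 counts in LDB2-/- and 7 and 0 in WT, and Krtap5-3 had 5 and 4 in LDB2-/- and 0 and 4 in WT. Neither passed with no filter, with edgeR adjusted p of 0.268 and 0.603, and at these counts a difference was not detectable. Krtap28-13 had 83 and 77 counts in LDB2-/- and 0 and 4 in WT. Its log2 fold change of 5.57 (SE 0.87, edgeR adjusted p = 0.00339) was among the smallest of the tested sulfur-rich genes. Krtap5-4 and Krtap28-13 passed the filter only through LDB2-/-.

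The classes were then set side by side. Among tested genes the median log2 fold change was 6.48 for 15 high glycine-tyrosine genes (range 5.83 to 7.14) and 7.23 for 33 sulfur-rich genes (fitted values from 5.01), beside -0.01 over all genes tested. With no filter, with Krtap5-4 and Krtap5-2 set to their bounds and Krtap13 left out, the medians were 6.45 for 16 high glycine-tyrosine genes and 6.97 for 37 sulfur-rich genes. The difference of the tested medians, high glycine-tyrosine minus sulfur-rich, was -0.75, and it was -0.74 with Krtap16-1 counted as sulfur-rich. Genes of one class share libraries and are no replicates, so the difference was not tested. It turned to 0.38 without WT library 2, and to 0.81 and 0.08 with limma on log2(FPKM + 1) and log2(FPKM + 0.1). No order of the classes by fold change is therefore given.

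The class make-up of Krtap RNA does not depend on the scaling of libraries. High glycine-tyrosine genes took 43.2% (95% Wilson interval 43.1 to 43.4) and 43.3% (43.2 to 43.4) of Krtap counts in LDB2-/-, against 34.4% (32.8 to 36.1) and 46.4% (45.5 to 47.3) in WT. The intervals cover counting error only. The means were 43.3 ± 0.0449% in LDB2-/- and 40.4 ± 8.49% in WT (SD, n = 2 each), and both LDB2-/- values lay between the WT values. The small SD in LDB2-/- covers shifts in opposite directions within the class. From LDB2-/- library 1 to 2, Krtap7-1 went from 18.1 to 18.9% and Krtap8-1 from 17.7 to 18.5%. The shares of subfamilies 6, 16, 19, 20, 21 and 22 all fell, that of subfamily 6 from 1.91 to 1.49%. With 2 libraries against 2, the smallest two-sided p of an exact permutation test is 0.333, so no p is given. By summed FPKM the class took 52.9% and 52.8% in LDB2-/- against 45.1% and 56.4% in WT, in the same arrangement.

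The WT libraries differed from each other in both the level and the make-up of Krtap RNA. In LDB2-/-, library 2 had 1.11 times the summed Krtap level of library 1. Gene by gene, it was higher for 2 of 16 high glycine-tyrosine genes (median ratio to library 1 of 0.835). Of the 38 sulfur-rich genes, 23 were higher in it (median ratio 1.01 over 37 genes). In WT, the 54 genes summed to 41.6 CPM in library 1 and to 193 CPM in library 2, a ratio of 4.65. WT library 2 was the higher for 46 of 54 genes, and 13 genes had 0 counts in WT library 1 against 6 in WT library 2. The ratio of WT library 2 to WT library 1 was 6.28 for the high glycine-tyrosine genes and 3.80 for the sulfur-rich genes. It split more clearly by position, at 8.27 for the 23 genes of chromosome 16 and 1.73 for the 22 genes of chromosome 11. Over genes with more than 3 counts in both WT libraries, the median ratio was 7.28 on chromosome 16 and 2.05 on chromosome 11. Neither chromosome was uniform. Subfamily 3 held 1265 of the 1698 chromosome 11 counts in WT library 1, at a ratio of 1.25. On chromosome 16 the ratio was 1.42 for subfamily 6, 2.25 for Krtap22-2 and 73.7 for Krtap15. Within chromosome 16 it was 6.16 for the 15 high glycine-tyrosine genes and 15.4 for the 8 other genes. All 48 tested genes kept a positive log2 fold change without WT library 1 and without WT library 2. Of these 48, 23 had passed the filter only through LDB2-/- and could hardly have gone another way. The median log2 fold change was 5.76 for the high glycine-tyrosine and 6.49 for the sulfur-rich genes without WT library 1, and 8.96 and 8.59 without WT library 2.

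**Figure D3:**
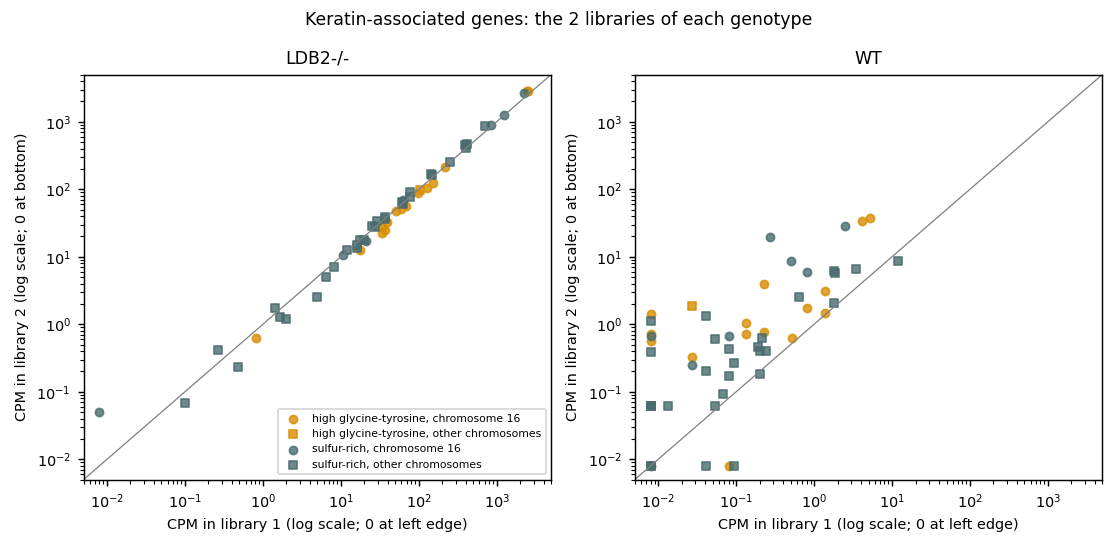
CPM of each Krtap gene in library 1 (x axis) against library 2 (y axis) of the same genotype, both on log axes with 0 drawn at the edge, LDB2-/- left and WT right, with colour for class and marker shape for chromosome 16 or another chromosome. The LDB2-/- points lie near the line of equal levels, apart from some of the lowest genes. In LDB2-/-, 2 of 16 high glycine-tyrosine genes and 23 of 38 sulfur-rich genes were higher in library 2. Most WT points lie above the line, with 46 of 54 genes higher in WT library 2.

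As shares of Krtap counts, chromosome 16 held 77.6% and 77.6% in LDB2-/-, against 44.5% and 79.0% in WT. Chromosome 11 held 21.9% and 21.9% in LDB2-/-, against 55.1% and 20.5% in WT. WT library 1 thus stood apart, and WT library 2 had close to the LDB2-/- make-up at a far lower level. The same arrangement held for the 4 genes with the highest mean FPKM, Krtap8-1, Krtap7-1, Krtap11-1 and Krtap15, which took 61.1% and 62.9% of Krtap counts in LDB2-/- against 29.2% and 62.1% in WT. Subfamily 3 was the largest single part of the surplus of chromosome 11 in WT library 1, and it held 11.3 ± 0.562% of Krtap counts in LDB2-/- and 26.03 ± 21.2% in WT (SD, n = 2 each). Of its 1265 counts in WT library 1, 874 belonged to Krtap3-2.

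**Figure D4:**
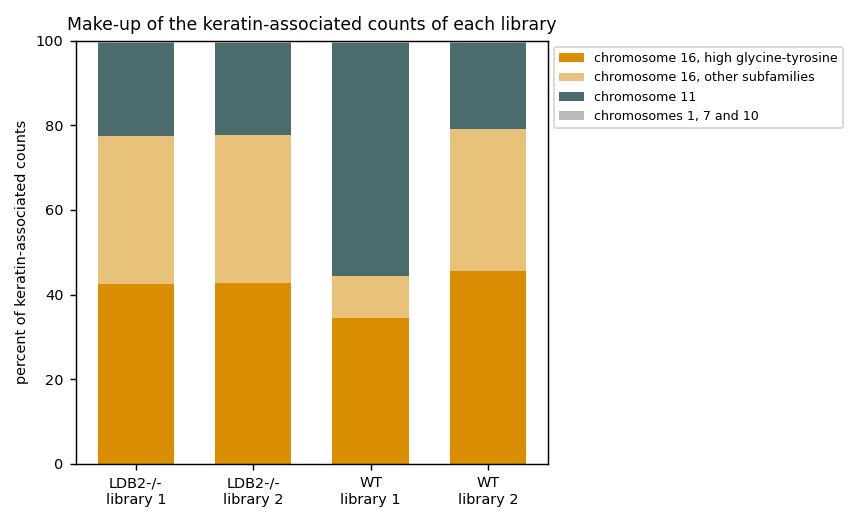
Share of all Krtap counts (y axis, percent) held by blocks of genes in each of the 4 libraries, LDB2-/- left of WT. Chromosome 11 holds 21.9% in both LDB2-/- libraries, against 55.1% in WT library 1 and 20.5% in WT library 2.

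Several members are near copies, and how the deposited counting divided their reads is not stated. The coding sequences of Krtap3-2 and Krtap3-3 were identical (100%). Identity was 98.9% for Krtap31-1 and Krtap31-2, 97.9% for Krtap6-1 and Krtap6-5, 95.5% for Krtap4-1 and Krtap4-2, 92.8% for Krtap10-10 and Krtap10-4 and 92.0% for Krtap19-1 and Krtap19-3, and Krtap16-3 was 90.04% identical to both of the last. Single values of these genes, the contrast between Krtap3-2 and Krtap3-3 included, are uncertain. Sums over a subfamily are less so, except where copies lie in different subfamilies, as with Krtap16-3 and the Krtap19 genes. In the authors' deposited table, 49 of the 54 genes had an adjusted p under 0.05, all higher in LDB2-/-, beside 23.5% of 17390 genes with a value there. The 5 that did not were Krtap13, Krtap5-1, Krtap5-3, Krtap19-3 (0.0576) and Krtap24-1 (0.0627) in the authors' deposited table.

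Promoters were examined because members on 5 chromosomes moved together. RefSeq promoters (GRCm38.p6, 250 bases before the start to 50 after) were found for 49 of the 54 genes, leaving out Krtap1-3, Krtap10-10, Krtap12-1, Krtap7-1 and Krtap9-1. The 100 bases before the start are shown for 4 abundant genes, 5′ to 3′ on the gene's strand, with TATAAA in capitals.
Krtap8-1, chr16:89487953-89488052, minus strand: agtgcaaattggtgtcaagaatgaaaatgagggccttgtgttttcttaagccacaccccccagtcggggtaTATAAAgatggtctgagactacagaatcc
Krtap11-1, chr16:89571184-89571283, minus strand: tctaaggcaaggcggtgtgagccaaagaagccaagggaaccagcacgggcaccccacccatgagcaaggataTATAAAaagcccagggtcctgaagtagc
Krtap3-1, chr11:99566631-99566730, minus strand: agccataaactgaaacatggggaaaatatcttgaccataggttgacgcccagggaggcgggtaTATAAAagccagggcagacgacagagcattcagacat
Krtap15, chr16:88828909-88829008, plus strand: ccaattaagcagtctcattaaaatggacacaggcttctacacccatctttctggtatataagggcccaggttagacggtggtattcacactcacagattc

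The letters TATAAA, the common form of the TATA box, occurred on either strand in 40 of the 49 promoters (81.6%), beside 13.6% of 32851 promoters in the table. On the gene's own strand and 40 to 16 bases before the start they occurred in 29 of 49, beside 1.99% of all promoters. In the lines above they begin 29 bases before the start in Krtap8-1, 28 in Krtap11-1 and 37 in Krtap3-1. These letters are not in the window shown for Krtap15, nor in the same window of Krtap14, which is not shown. Both windows hold TATAAG, which differs from TATAAA only in the last letter. The letters CTTTGA, the core of the site that LEF1 binds, occurred on either strand in 14 of 49 (28.6%), beside 16% of all. The letters TTTAT, a core bound by HOXC13, occurred on either strand in 44 of 49 (89.8%), beside 40.01% of all. However, their reverse complement, ATAAA, lies within TATAAA. Outside TATAAA the letters TTTAT occurred on either strand in 24 of 49 (49.0%), beside 33.5% of all. Promoters of near copies are not independent, and a match of letters is a description and no binding site.

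The partners of these proteins in the hair shaft were read from lists chosen with earlier results known. Type I hair keratins, which pair with type II keratins to form the filaments, were higher for 9 of 9 genes (median log2 fold change 6.86), and type II hair keratins for 7 of 7 (median 7.01), beside 28.4% of all genes tested. Both medians lay near the Krtap median of 6.96 over 48 tested genes. Summed type I keratins were at 9939 and 11326 CPM in LDB2-/- against 23.4 and 151 CPM in WT, and type II keratins at 12238 and 13538 CPM in LDB2-/- against 24.8 and 178 CPM in WT, so WT library 2 was the higher there too. Cuticle and cross-linking genes were higher for 7 of 7, beside the same 28.4%, with a median of 5.59, and 2 of the 7, Krt32 and Krt82, are also among the hair keratins counted above. Among them Padi3, which converts arginine to citrulline in hair proteins, rose by 8.35, Tchh, which encodes trichohyalin of the inner root sheath and medulla, by 7.84, and S100a3, a calcium-binding protein of the cuticle, by 7.24. Of 10 transcription factors of the hair matrix and shaft, 9 were higher, again beside 28.4% of all genes tested, with a median of 2.81. Msx2 rose by 6.05, Lef1 by 6.02, Dlx3 by 5.19 and Hoxc13, a regulator of hair keratin genes, by 4.50. Gata3, a factor of the inner root sheath, had a log2 fold change of 0.32 that did not pass (edgeR adjusted p = 0.0682).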

How the data were processed

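RNA-seq libraries of back skin, 2 from LDB2-/- and 2 from WT mice, were grouped by the genotype label. Reads were handled with bcl2fastq 1.8.4, the aligner HISAT2 2.1.0 and the quantifier StringTie 1.3.4d on build mm10, per the submitters' processing notes. Tool settings and whether counting used strand are not given in the sources used here. The authors deposited whole-number read counts per gene and FPKM, per the file headers. They also deposited log2 values normalized between libraries (not used in a result here), and their own comparison, a signed fold change held as a score with an adjusted p-value.

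Counts of the 12400 genes that reached an FPKM of 1 in 2 or more libraries were scaled by TMM and tested with edgeR 4.0.16 (quasi-likelihood, genotype only, two-sided, Benjamini-Hochberg over all genes tested, threshold 0.05) in R 4.3.3. The biological coefficient of variation was 0.194, and total counts were 54095522 to 68436842. Fold changes are of LDB2-/- over WT, with the SE implied by the F statistic. CPM used the scaled library size. Genes at 0 in both WT libraries have bounds against 3 counts over the group.

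The members, the partner lists and the markers were chosen with earlier results of these data known. Named members were, per class, the 6 highest in mean FPKM, the 3 largest and 3 smallest fold changes, those not tested and those at 0 in WT, with counts per subfamily. Other members were named as parts of a subfamily. Cysteine, glycine and tyrosine codons and identity were computed from GENCODE M21 coding sequences with Biopython 1.88, since no protein sequences were used. Alternatives were other scalings, filters and pseudocounts (1 and 0.1), DESeq2 1.42.0, limma 3.58.1, replicate blocks, left-out libraries and other class definitions.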

Additional observations from a re-analysis of the deposited data

How the results depend on the processing

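All 48 tested Krtap genes stayed higher in every alternative that tested them. The direction was the same for 670 of 670 fold changes over 14 settings. With FPKM filtered on its mean, 46 genes were left, all higher. However, 23 of the 48 had passed the main filter only through the LDB2-/- libraries. These 23 could hardly have gone another way in any setting. Fits without 1 library kept the same 12400 genes, chosen with every library in, so they do not test the filter. Over the whole table, scaling by the library total alone gave 2248 genes higher and 5096 lower, in place of 3521 and 3576, shifting the median of all genes by -0.32 on the log2 scale. With limma on FPKM, higher and lower genes numbered 2393 and 5350 at a pseudocount of 1, and 2354 and 5214 at 0.1. Leaving out 1 library gave 2707 to 3264 higher and 2894 to 3461 lower. The lone library was then assumed to vary like the other genotype's.

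The class medians were the weakest result. Leaving out 1 library, the high glycine-tyrosine median was 5.76 to 8.96, the sulfur-rich median 6.49 to 8.59 and their difference -0.82 to 0.38, with the change of sign without WT library 2. The difference was 0.81 with limma on log2(FPKM + 1), where the sulfur-rich median was 4.75, and 0.079 with limma on log2(FPKM + 0.1). A pseudocount lowers the fold change of genes with low values. Neither WT library reached an FPKM of 1 for 21 of 33 tested sulfur-rich genes and 2 of 15 high glycine-tyrosine genes. Genes with only 1 WT library at that level also needed an LDB2-/- library to pass the filter. The part of low values in the change of sign was not tested. The high glycine-tyrosine share of Krtap counts was 52.8% in LDB2-/- and 50.7% in WT by summed FPKM, 30.4% and 31.1% without Krtap7-1, the gene with the most counts, and 60.8% and 51.2% with classes from codons. With Krtap16-1 as sulfur-rich it was 42.6% and 39.9%. Leaving out 1 library gave 43.2 to 43.3% in LDB2-/- and 34.4 to 46.4% in WT. The codon classes, the change of Krtap16-1 and the crossed pairs were chosen after seeing the data, and the planned class from protein sequences was not run.

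Libraries share replicate numbers, but same-numbered libraries did not deviate together (r = -0.164 across 12400 genes, which are not independent replicates). A single correlation cannot decide whether the numbers mark pairs, and the main fit used no pairing. With the replicate number as a block, 2916 genes were higher and 3176 lower, and 48 of 48 Krtap genes stayed higher. With crossed pairs as a block, 3678 were higher and 3591 lower. Among tested members the SE of the log2 fold change was 0.16 for Krtap17-1, with 135 and 133 counts in WT, and 1.77 for Krtap15, with 20 and 1285.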
